A study of Mus musculus with 2 samples.

Results

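The transcripts described here are 10 mRNAs encoded by the mitochondrial genome, which specify subunits of the respiratory chain. They are mt-Nd1, mt-Nd2, mt-Nd3, mt-Nd4, mt-Nd5 and mt-Nd6 of complex I, mt-Cytb of complex III, mt-Co1 and mt-Co3 of complex IV and mt-Atp6 of the ATP synthase. They were selected by name, and the set was proposed with their reads in both libraries already known, so the differences between the libraries are a description with no test. Of the 10 mRNAs 9 were listed in the table of 13549 genes, and mt-Nd3 was not among the listed genes. In all, 14 mitochondrially encoded genes were listed.

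The cells were labelled as microglia, the resident macrophages of nervous tissue, sorted by flow cytometry from mouse retinas on postnatal day 5, and their RNA was sequenced in bulk. Every animal had the genotype CD11c-Cre-gfp;Rosa-TDTom, in which the CD11c promoter drives Cre and GFP, and Cre activity leaves a lasting red label. The Cd11c-active library came from 4041 cells positive for both GFP and TdTom, and the Cd11c-lineage library from 5441 cells positive for TdTom and negative for GFP. The labels give 8 retinas in all, 4 of each sex, as the source of both. There was 1 library per group, so no difference below has a replicate check. The reporter marks any cell that has used the promoter, so it does not by itself restrict the sort to microglia.

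Mitochondria keep a small circular genome of their own, whose strands are called heavy and light. Each strand is copied into a long precursor that spans many genes, and the mRNAs are released mainly by cutting out the tRNAs that lie between them. The heavy-strand precursor carries both ribosomal RNAs and all of the mRNAs except mt-Nd6, which comes from the light strand. Because mRNAs of one precursor are made together, their unequal levels are generally ascribed to differences in processing and stability. Reads of these transcripts can also be counted elsewhere or lost, because pieces of the mitochondrial genome have been copied into nuclear chromosomes in the course of evolution.

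Examples of those nuclear copies are shown first, both of mRNAs with few or no reads (mt-Nd3 and mt-Atp6) and of mRNAs with many (mt-Co1 and mt-Nd5). In the GENCODE M21 transcripts of the GRCm38 assembly, 11 of 13 mitochondrial mRNAs matched at least one annotated nuclear transcript at 85% identity or more over at least 150 bases. In the first pair below, mt-Nd3 and its nuclear pseudogene Gm28438 differ at 1 of 345 aligned bases. The differing base is in capitals, and the first 100 bases of each are printed 5′ to 3′.
mt-Nd3: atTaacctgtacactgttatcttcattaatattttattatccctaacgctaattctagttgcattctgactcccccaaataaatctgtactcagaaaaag
Gm28438: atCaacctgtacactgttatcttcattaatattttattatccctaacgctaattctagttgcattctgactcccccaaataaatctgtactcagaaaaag

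The mt-Atp6 mRNA is identical to the pseudogene Gm10925 over all 678 aligned bases, and the first 100 bases, which serve for both, are printed to show a stretch where the reads of mRNA and copy cannot be told apart.
mt-Atp6: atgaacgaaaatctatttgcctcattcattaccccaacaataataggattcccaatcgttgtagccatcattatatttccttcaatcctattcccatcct

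For mt-Co1 its longest copy is shown and for mt-Nd5 its closest one, and both differ at more places, again marked in capitals. Gm13340 matches mt-Co1 over 1545 bases at 97.6% identity, and the first 100 bases hold 3 differences. Gm4076 matches mt-Nd5 over 954 aligned bases at 95.2% identity, and bases 706 to 805 of mt-Nd5 hold 6 differences from it.
mt-Co1: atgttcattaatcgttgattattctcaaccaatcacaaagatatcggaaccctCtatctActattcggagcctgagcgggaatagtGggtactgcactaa
Gm13340: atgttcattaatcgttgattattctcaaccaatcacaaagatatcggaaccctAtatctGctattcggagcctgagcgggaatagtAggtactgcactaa
mt-Nd5: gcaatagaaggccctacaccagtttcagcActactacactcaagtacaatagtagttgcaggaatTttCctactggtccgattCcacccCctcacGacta
Gm4076: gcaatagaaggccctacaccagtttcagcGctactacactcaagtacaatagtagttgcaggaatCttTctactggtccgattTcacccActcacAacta

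The annotated sequences of mt-Nd5 and mt-Nd6 lie on opposite strands and overlap at their 3′ ends. Their last 14 bases, in capitals, are the reverse complement of each other. The library kit keeps the strand, but whether strand was used in counting is not given in the sources used here. Without it, reads over these bases cannot be assigned to one of the 2 genes. Any heavy-strand RNA over the rest of mt-Nd6 would then also be counted for mt-Nd6, and this was not tested.
mt-Nd5 3′ end: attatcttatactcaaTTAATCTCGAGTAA
mt-Nd6 3′ end: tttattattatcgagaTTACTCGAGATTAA

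The Cd11c-active library held 12943998 reads and the Cd11c-lineage library 13402625, as raw counts per gene. Ratios are Cd11c-active over Cd11c-lineage, on the log2 scale, after scaling of library sizes with TMM factors; scaling to library totals instead lowers every log2 ratio by 0.14. Each ratio has an exact Clopper-Pearson 95% interval. All intervals called counting or Wilson cover the counting error of reads only, and hold no variance between animals or preparations. PCR duplicates cannot be removed from reads that carry no molecular identifiers, so the error in counting molecules can be larger still. The libraries differed by far more than counting error: the variance of the log2 ratio over genes was 104 times the counting variance for genes with 3200 up to 6400 reads in all, and 150 times above that. A second interval, called widened, uses reads divided by this factor and takes the typical gene as equal in both libraries. All 10 microglial markers, among them Csf1r, Cx3cr1 and P2ry12, had reads in both libraries, with summed levels of 22198 and 20711 CPM (reads per 1000000 of scaled library size). The 8 endothelial markers summed to 646 CPM in the Cd11c-active library against 73.7 in the other, where Cldn5, Flt1, Tek, Esam and Plvap were at 0, the retinal neuron markers to 122 and 291, the border macrophage markers to 21.2 and 128, and the monocyte and neutrophil markers to 2.83 and 17. The 4 listed Muller glia and astrocyte markers summed to 2266 and 2416 CPM, of which Glul alone, glutamine synthetase, held 27773 and 33293 reads. Slc1a3, Sox9 and Rlbp1 had 73, 43 and 94 reads in Cd11c-active against 642, 18 and 0 in Cd11c-lineage, and Aqp4, Gfap and Pax2 were not among the listed genes. The part of these other cell types in the mitochondrial values was not tested, and in bulk RNA fewer cells of a type and less RNA per cell cannot be told apart.

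The 9 listed mRNAs together had 47082 reads in Cd11c-active against 73923 in Cd11c-lineage, which is 0.364% (Wilson 95% interval 0.360 to 0.367) and 0.552% (0.548 to 0.556) of all reads. The log2 ratio of the sum was -0.46 (counting interval -0.48 to -0.45, widened -0.67 to -0.25). mt-Co1, the catalytic subunit of cytochrome c oxidase, made up most of both sums, with 61.3% and 53.8% of the mRNA reads. Without mt-Co1 the log2 ratio of the sum was -0.72 (widened -1.05 to -0.40). The mitochondrial mRNAs were thus lower in Cd11c-active as a sum, and more so once the most abundant one was set aside. Among the 709 genes with at least 6400 reads, the 5th to 95th percentile of the log2 ratio was -0.54 to 0.63. The sum of all 9 mRNAs lay inside this span, and the sum without mt-Co1 lay below it.

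Individual mRNAs did not share one ratio. Of the 9 listed mRNAs 6 had a ratio below 0 and 3 above, with a median of -0.28, against a median of 0.01 over the 13037 genes with at least 20 reads. Over the 7 mRNAs with at least 1000 reads the median was -0.72, against -0.02 over the 4619 genes with as many. At a threshold of 2-fold, 2 were lower in Cd11c-active (mt-Nd4 and mt-Nd5) and 2 higher (mt-Atp6 and mt-Co3). Among the 13037 genes 21.6% were lower and 23.3% higher past the same threshold. Of the 7 mRNAs with at least 1000 reads 2 were lower and 0 higher past 2-fold, and among the 4619 genes with at least 1000 reads 4.14% were lower and 5.43% higher. These shares stand beside the counts only for orientation, since the mRNAs were chosen with this contrast known.

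**Figure D1:**
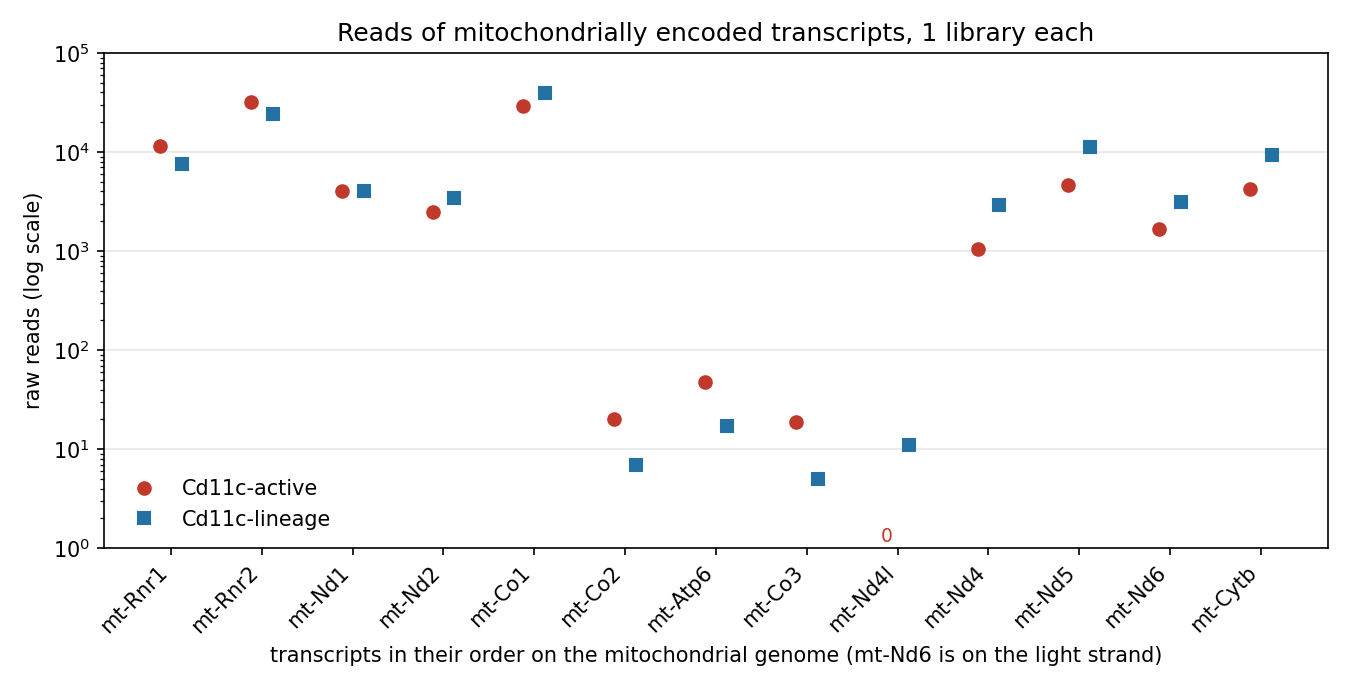
Raw reads (log axis) of each listed mitochondrial rRNA and mRNA in the Cd11c-active library (circles) and the Cd11c-lineage library (squares), ordered along the genome. mt-Co2, mt-Atp6, mt-Co3 and mt-Nd4l have 0 to 48 reads (a count of 0 is written as a digit at the axis), and all other mRNAs have 1052 to 39807.

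Complex I, the NADH dehydrogenase through which electrons enter the chain, takes more of the mitochondrial mRNAs than any other complex. mt-Nd1, which encodes a membrane subunit near the quinone site, had 4062 reads in Cd11c-active against 4068 in Cd11c-lineage, or 329 and 290 CPM. Its log2 ratio was 0.18 (counting interval 0.12 to 0.25, widened -0.64 to 1.01). The libraries were thus nearly equal in raw reads of mt-Nd1, and its ratio was -0.0039 after removal of the trend that log2 ratios showed with transcript length and GC content.

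mt-Nd2, a proton-pumping subunit of the same complex, had 2496 and 3459 reads, or 202 and 246 CPM. Its log2 ratio was -0.28 (counting -0.36 to -0.21, widened -1.10 to 0.53). mt-Nd4, another pumping subunit, had 1052 and 2918 reads, or 85.2 and 208 CPM. Its log2 ratio of -1.28 (counting -1.39 to -1.18, widened -2.51 to -0.21) was the lowest of the 9. The Cd11c-lineage level of mt-Nd4 was 2.44 times that of Cd11c-active, while that of mt-Nd2 was 1.22 times.

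mt-Nd5, the pumping subunit at the far end of the membrane arm, had 4645 reads in Cd11c-active against 11185 in Cd11c-lineage, or 376 and 796 CPM. The log2 ratio was -1.08 (counting -1.13 to -1.03, widened -1.74 to -0.47), and the Cd11c-lineage level was 2.12 times that of Cd11c-active. Of the 356 genes in the table with at least 10000 reads over both libraries, 0 had a lower ratio than mt-Nd5, and of the 4619 genes with at least 1000 reads 147 did. The authors' deposited table gives log2 fold changes of -1.22 for mt-Nd5 and -1.42 for mt-Nd4, which are relative to library totals.

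mt-Nd6, the complex I mRNA of the light strand, had 1665 and 3128 reads, or 135 and 223 CPM. Its log2 ratio was -0.72 (counting -0.81 to -0.64, widened -1.69 to 0.20). It was lower in Cd11c-active, by less than mt-Nd5, whose annotated 3′ end overlaps its own. With the length and GC trend taken out, the ratios of mt-Nd6 and mt-Nd5 were -1.08 and -1.10. At 519 bases and 34.1% GC, mt-Nd6 lies where few genes hold that trend, so its value there is uncertain.

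mt-Cytb encodes cytochrome b, the only mitochondrially encoded subunit of complex III, which passes electrons on to cytochrome c. Its mRNA had 4216 reads in Cd11c-active against 9336 in Cd11c-lineage, or 341 and 664 CPM. The log2 ratio was -0.96 (counting -1.01 to -0.91, widened -1.66 to -0.29). mt-Cytb lay just short of the 2-fold threshold and passed it under scaling to library totals (-1.10) and after removal of the trend (-1.11).

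In complex IV, mt-Co1 had 28879 and 39807 reads, or 2339 and 2833 CPM. The log2 ratio was -0.28 (counting -0.30 to -0.25, widened -0.55 to -0.005). mt-Co3, a further core subunit of the same enzyme, had 19 and 5 reads, and mt-Atp6, a subunit of the proton channel of ATP synthase, had 48 and 17. Their log2 ratios were 2.01 (counting 0.64 to 3.89) and 1.66 (0.86 to 2.58), opposite in sign to that of mt-Co1. At these read numbers the widened interval of mt-Atp6 had no upper bound and a lower bound of -5.10, and that of mt-Co3 had no bounds, so a difference was not detectable at this depth.

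**Figure D2:**
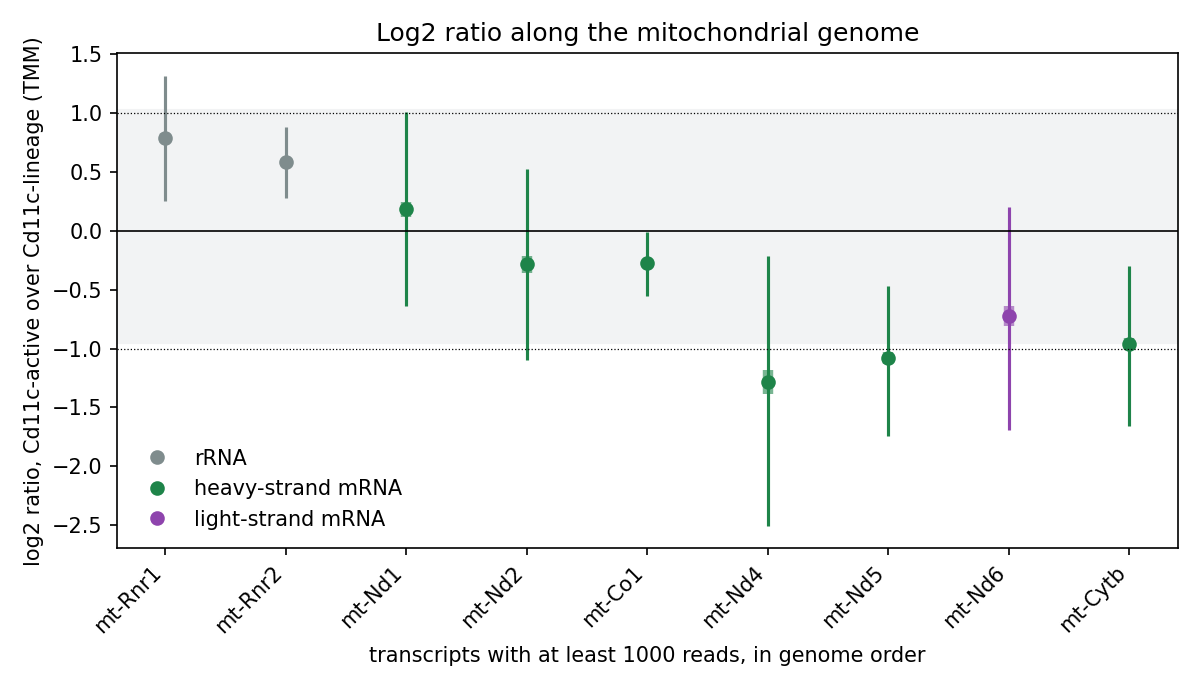
Log2 ratio of Cd11c-active over Cd11c-lineage (TMM scaling) for the 9 mitochondrial transcripts with at least 1000 reads, in genome order. Points are the ratios, thick bars the counting intervals, thin bars the widened intervals and dotted lines 2-fold; the grey band spans the 5th to 95th percentile (-0.95 to 1.03) of the 4619 genes with at least 1000 reads. Both rRNAs lie above 0, mt-Nd1, mt-Nd2 and mt-Co1 between 0.18 and -0.28, and mt-Nd4, mt-Nd5 and mt-Cytb between -0.96 and -1.28.

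The mRNAs of the heavy strand were compared with each other as ratios of reads within each library, which do not depend on library scaling. For each read of the other 7 listed heavy-strand mRNAs there were 0.114 reads of mt-Nd5 in Cd11c-active against 0.188 in Cd11c-lineage. On the log2 scale this is a difference of -0.72 (counting interval -0.77 to -0.67, widened -1.42 to -0.06). mt-Nd5 was thus lower relative to the sum of these 7 mRNAs, but not relative to every one of them. Against mt-Nd1 the difference was -1.27 (widened -2.33 to -0.21), against mt-Co1 -0.80 (-1.52 to -0.12) and against mt-Nd2 -0.80 (-2.02 to 0.36). Against its neighbours the differences were smaller, at 0.20 for mt-Nd4 (widened -1.32 to 1.80) and -0.12 for mt-Cytb (-1.07 to 0.82).

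Along the heavy strand, the transcripts with at least 1000 reads had these ratios. The rRNAs mt-Rnr1 and mt-Rnr2, which come first on the heavy strand, had 11568 and 32015 reads in Cd11c-active against 7597 and 24308 in Cd11c-lineage. Their log2 ratios were 0.79 (widened 0.25 to 1.32) and 0.58 (0.28 to 0.89). The mRNAs mt-Nd1, mt-Nd2 and mt-Co1 follow, at 0.18, -0.28 and -0.28, and mt-Nd4, mt-Nd5 and mt-Cytb are the last ones, at -1.28, -1.08 and -0.96. The mRNAs with few reads lie between mt-Co1 and mt-Nd4, and of these mt-Co2, mt-Atp6 and mt-Co3 had ratios of 1.64, 1.66 and 2.01, while mt-Nd4l had 0 and 11 reads. Among the last 3 mRNAs the lowest ratio was that of mt-Nd4, the first in order, so the ratios did not follow the gene order step by step.

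The summed mRNAs and the summed rRNAs of the mitochondria had ratios of opposite sign, although mt-Nd1, mt-Atp6 and mt-Co3 lay above 0 as the rRNAs did. For each rRNA read there were 1.08 reads of the 9 mRNAs in Cd11c-active against 2.32 in Cd11c-lineage, a log2 difference of -1.10 (counting -1.13 to -1.07, widened -1.43 to -0.76). Ribosomal RNA had been depleted by a kit known to target mitochondrial as well as cytosolic rRNA, so the remaining rRNA need not follow the amount in the cells. The cytosolic Rn18s, which the kit also removes, took 8.57% of the reads in Cd11c-active against 2.84% in Cd11c-lineage, a log2 ratio of 1.73. Its part in the mitochondrial values was not tested; leaving out mitochondrial, ribosomal, 7SK and 7SL genes together before scaling left the ratio of the mRNA sum at -0.46.

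mt-Nd6, from the other strand, was set against the heavy-strand mRNAs in the same way. There were 0.0367 reads of mt-Nd6 per heavy-strand read in Cd11c-active against 0.0442 in Cd11c-lineage, a log2 difference of -0.27 (counting -0.36 to -0.18, widened -1.51 to 0.85). The size of this difference depended on the comparison. It was -0.0036 without mt-Co1, -0.36 without mt-Nd5 and -0.54 after removal of the length and GC trend. Against the median of the heavy-strand mRNAs it was -0.44, and against the median of those with at least 1000 reads -0.10. Against mt-Nd5 alone mt-Nd6 differed by 0.36 (widened -1.03 to 1.65), against mt-Cytb by 0.24 (-1.18 to 1.55) and against mt-Nd1 by -0.91 (-2.40 to 0.49). The light-strand mRNA lay within the range of the heavy-strand mRNAs, and each of its widened intervals included 0. Whether the reads counted for mt-Nd6 hold any from the heavy strand was not tested.

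**Figure D3:**
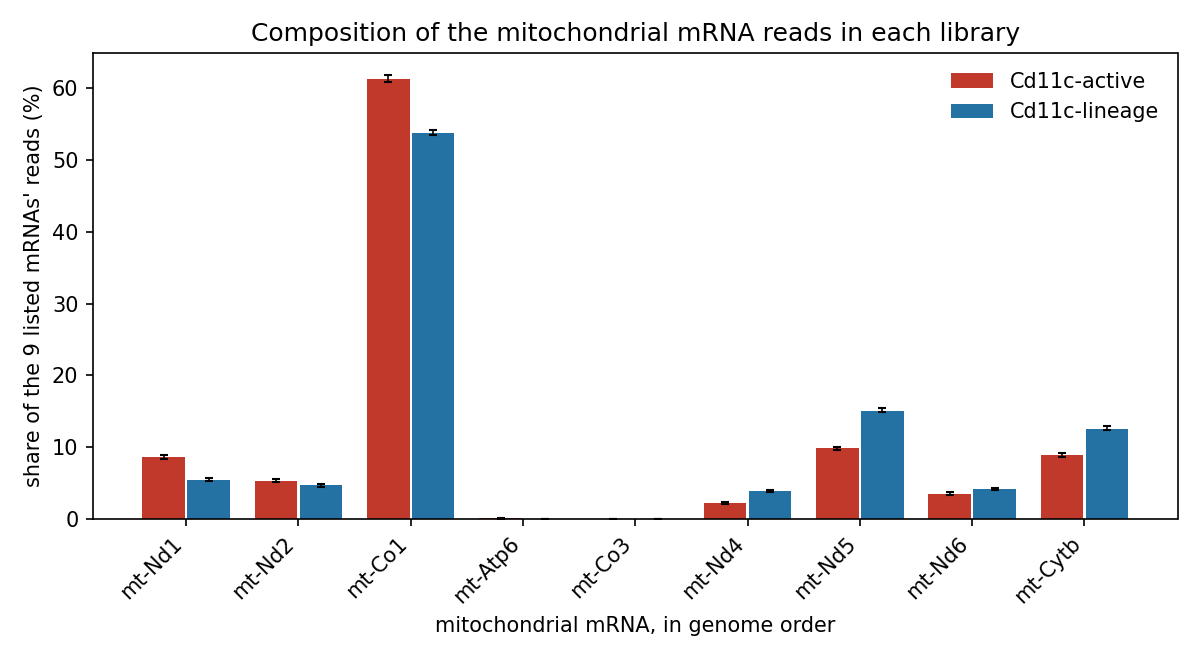
Share of each listed mRNA in the summed reads of the 9 mRNAs (percent), in Cd11c-active and Cd11c-lineage, with Wilson 95% intervals for counting error as error bars. mt-Nd5 is 9.87% of the mRNA reads in Cd11c-active against 15.1% in Cd11c-lineage, mt-Cytb 8.95% and 12.6%, and mt-Nd1 8.63% and 5.50%.

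The order of the levels also differed between the libraries when reads were set on a per-length scale (CPM per kilobase of transcript). In Cd11c-active mt-Co1 had 1514 CPM per kilobase, followed by mt-Nd1 at 344, mt-Cytb at 298, mt-Nd6 at 260, mt-Nd5 at 206, mt-Nd2 at 195 and mt-Nd4 at 61.8. In Cd11c-lineage mt-Co1 had 1834, followed by mt-Cytb at 581, mt-Nd5 at 436, mt-Nd6 at 429, mt-Nd1 at 303, mt-Nd2 at 237 and mt-Nd4 at 151. mt-Nd1 was thus above mt-Nd5 per length in Cd11c-active and below it in Cd11c-lineage. Only mt-Co1 stood apart from its neighbour in both libraries beyond the widened interval of each level. mt-Nd4 stood apart from mt-Nd2 in Cd11c-active but not in Cd11c-lineage, and the other neighbours in either order overlapped. The place of mt-Nd4 depends on the length used: over its 100-base windows with no nuclear copy, a scale on which no read is taken to come from the others, it had 170 and 414 CPM per kilobase. On that scale mt-Nd2 had 222 and 271 and mt-Nd1 383 and 337, so mt-Nd4 was above both in Cd11c-lineage and below both in Cd11c-active.

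The mRNAs also differed in how much of their sequence has a nuclear copy. For each mRNA, the share of its 100-base windows that occur letter for letter in an annotated nuclear transcript was computed. This share was 99.5% for mt-Atp6 and mt-Co2, 99.9% for mt-Co3, 97.6% for mt-Nd3 and 98.5% for mt-Nd4l. The levels per kilobase in Cd11c-active and Cd11c-lineage were 5.71 and 1.78 for mt-Atp6, 1.96 and 0.454 for mt-Co3 and 2.37 and 0.728 for mt-Co2, a complex IV core subunit outside the 10 mRNAs. mt-Nd4l, of complex I and likewise outside them, had 0 and 11 reads. The share was 3.19% for mt-Nd2, and it was 0% for mt-Atp8, which is not among the listed genes, and for mt-Nd1, mt-Nd5, mt-Nd6 and mt-Cytb. The last 4 were at 206 to 344 CPM per kilobase in Cd11c-active and 303 to 581 in Cd11c-lineage.

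mt-Nd4 and mt-Co1 lay between these extremes in copied windows, at 60.8% and 30.8%. The first 876 of the 1378 bases of mt-Nd4 are identical to the pseudogene Gm28439, which leaves 502 windows without a copy. With windows of 50 bases the share was 51.1% for mt-Co1, 8.19% for mt-Nd2 and 7.61% for mt-Nd5, and the read length is not given in the sources used here. mt-Co1 had the highest level per length of the listed mitochondrial mRNAs and has a full-length copy at 97.6% identity. How reads with more than one place in the genome were counted is not given in the sources used here, so the part of the copies in the low reads was not tested. The search covered annotated transcripts of GRCm38 only, while the submitters' processing notes name GRCm39.

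**Figure D4:**
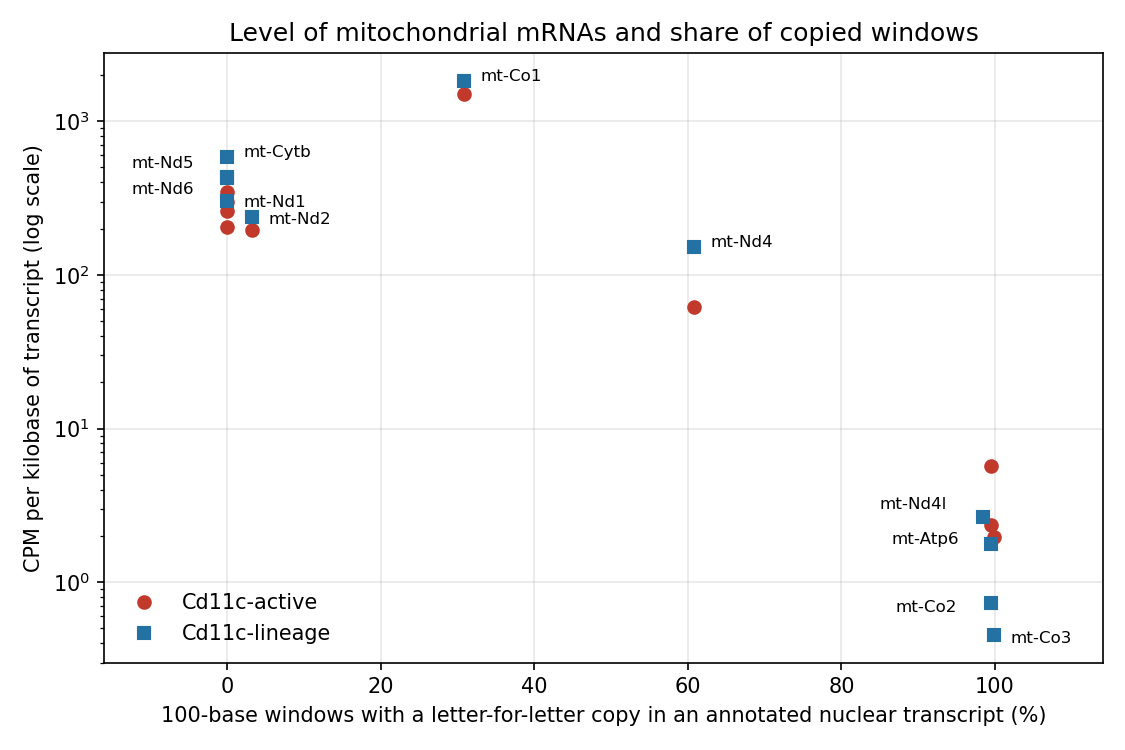
CPM per kilobase of transcript (log axis) of the listed mitochondrial mRNAs against the percentage of their 100-base windows that occur unchanged in an annotated nuclear transcript, with circles for Cd11c-active and squares for Cd11c-lineage; mt-Nd4l has 0 reads in Cd11c-active and is drawn for Cd11c-lineage only. mRNAs with 98.5% or more copied windows lie at 5.71 CPM per kilobase or less, and the others at 61.8 or more.

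The nuclear genome encodes the remaining subunits of each complex and all proteins that transcribe, process and translate the mitochondrial mRNAs. In a list of 42 nuclear-encoded subunits of complexes I to V, all with at least 20 reads, 0 were lower and 14 higher in Cd11c-active past 2-fold, with a median log2 ratio of 0.41; over all genes with as many reads 21.6% were lower and 23.3% higher. Among the 20 of them with at least 1000 reads the median was 0.14, with 5 below 0, 15 above and 3 (Sdhb, Cox6b1 and Atp5g2, the last named after its values were seen) past 2-fold on the higher side, where 5.43% of all such genes were. The median over all genes with at least 1000 reads was -0.02, and that of the 7 mitochondrial mRNAs with as many reads was -0.72. For complex I, Ndufs1 and Ndufv1, core subunits of the arm that oxidises NADH, had log2 ratios of 0.19 and 0.09, near the 0.18 of mt-Nd1, while mt-Nd2 had -0.28 and mt-Nd4, mt-Nd5 and mt-Nd6 -1.28, -1.08 and -0.72. For complex III, Uqcrc1 and Uqcrc2 had -0.10 and -0.11 and Cyc1, with fewer reads, 0.86 (widened -0.93 to 2.82), against -0.96 for mt-Cytb. For complex IV, Cox4i1 had 0.32 (widened -0.49 to 1.21), Cox8a 0.42 and Cox6b1 2.14 (widened 0.30 to 4.65), against -0.28 for mt-Co1.

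For ATP synthase, the catalytic subunits Atp5a1 and Atp5b had 6083 and 6408 reads in Cd11c-active against 6516 and 7151 in Cd11c-lineage. Their log2 ratios were 0.09 (widened -0.54 to 0.77) and 0.03 (-0.60 to 0.65), and that of Atp5pb, of the stalk, was 0.41. All 7 subunits of the enzyme with at least 1000 reads had ratios above 0, with a median of 0.32. Complex II has no mitochondrially encoded subunit, and there Sdha had -0.51 (widened -1.36 to 0.28) and Sdhb 1.14 (-0.35 to 2.65). Per length, Cox4i1 had 294 and 235 CPM per kilobase and Atp5b 271 and 266, below mt-Co1 in both libraries.

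The genes that act on mitochondrial DNA and RNA had few reads, and their counts past 2-fold stand against 21.6% lower and 23.3% higher among all genes with at least 20 reads. Of 11 transcription and replication genes with at least 20 reads 1 was lower and 1 higher past 2-fold, with a median of -0.03. The mitochondrial RNA polymerase Polrmt had 380 and 338 reads, with a ratio of 0.36 (widened -1.71 to 2.84). Tfam, which packages the mitochondrial genome, had 257 and 328 reads and a ratio of -0.16, with a widened interval on both sides of 0. Of 27 RNA processing and turnover genes 8 were lower and 3 higher, with a median of -0.27. Lrpprc, which binds and stabilises mitochondrial mRNAs, had 957 and 1452 reads, with a ratio of -0.41 (widened -1.68 to 0.74). Grsf1, an RNA granule protein reported to act on light-strand transcripts, had 1192 and 1279 reads and a ratio of 0.09 (-1.07 to 1.24).

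Of 10 translation factors 1 was lower and 1 higher past 2-fold, with a median of 0.23. The elongation factor Tufm had 881 and 566 reads, with a ratio of 0.82 (widened -0.66 to 2.44). Gfm1 had 447 and 654 reads and a ratio of -0.36 (-2.03 to 1.49). Oxa1l had 621 and 381 reads and a ratio of 0.89 (-0.93 to 2.82). Of 17 mitochondrial tRNA synthetases 4 were lower and 9 higher, with a median of 1.39, against the same 21.6% and 23.3% over all genes. Only Lars2 and Iars2 among the synthetases had at least 1000 reads, and Lars2, the leucyl-tRNA synthetase, had 76845 and 33188 reads with a ratio of 1.40 (widened 1.17 to 1.63). At 1598 and 607 CPM per kilobase it stood far above Iars2 at 10.3 and 11.6. Its ratio lay on the same side as that of Rn18s (1.73), and the part of ribosomal RNA reads in the Lars2 count was not tested.

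**Figure D5:**
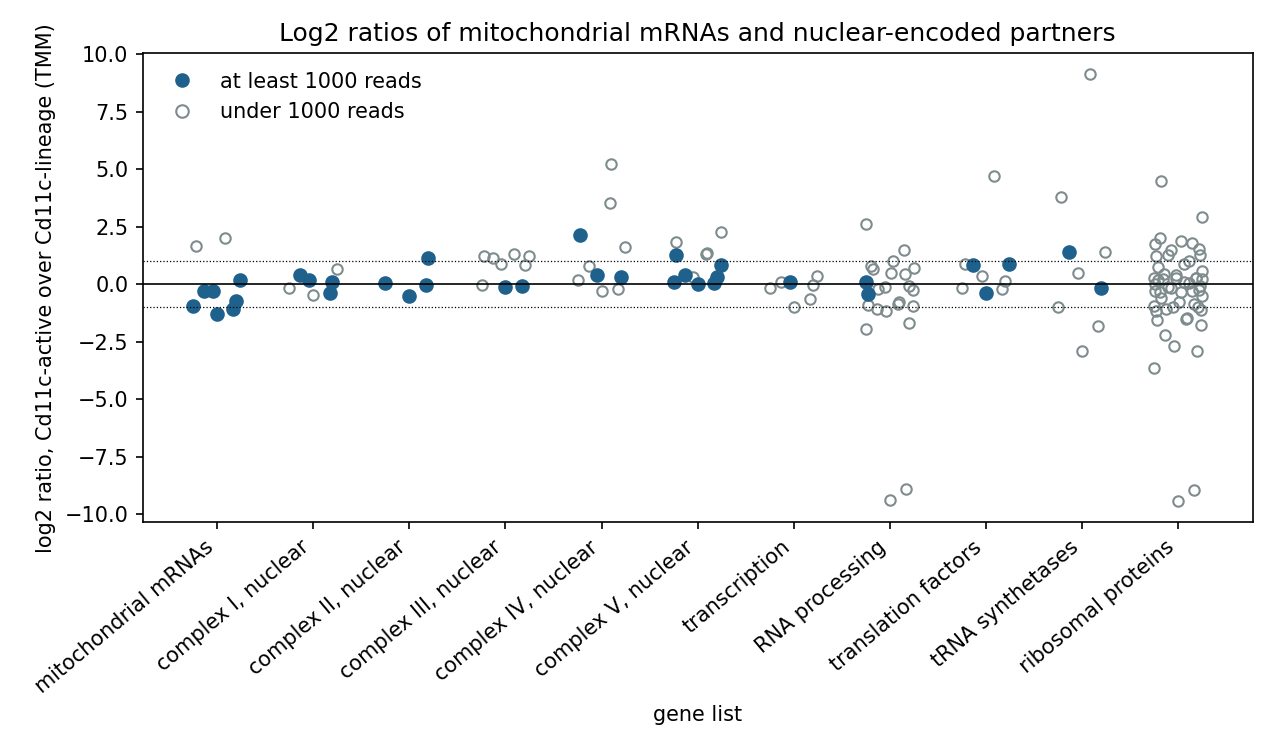
Log2 ratio of Cd11c-active over Cd11c-lineage (TMM scaling) of the 9 listed mitochondrial mRNAs and of nuclear-encoded genes by list, limited to nuclear genes with at least 200 reads; filled points have at least 1000 reads and dotted lines mark 2-fold. Filled mitochondrial mRNAs span -1.28 to 0.18 and filled nuclear subunits of complexes I to V span -0.51 to 2.14.

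Among the 1001 genes with at least 5000 reads, the 5 nearest to mt-Nd5 in log2 ratio were Map3k1 (-1.08), Sh3pxd2a (-1.08), Med13 (-1.11), Xist (-1.01) and mt-Cytb (-0.96). With 2 libraries this likeness is a single number per gene, and many unrelated genes can share it.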

How the data were processed

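One table of the whole series was used. For 2 libraries raw counts were deposited by the authors, 1 per gene, per the file headers and the values. Beside them stand the authors' fold change and mean abundance on the log2 scale, of which the fold change alone is quoted. The submitters' processing notes name cutadapt 3.5, STAR 2.7.9a, featureCounts 1.6.3, edgeR 4.0.16 and GRCm39, with no role or order. Every listed gene had at least 6 reads in all. Columns that could not be mapped to a sample numbered 0.

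Library sizes were scaled with TMM in edgeR 4.0.16 (R 4.3.3), with factors of 0.954 and 1.05. For log2 ratios 0.5 reads were added to each count. With a single library in each group there are no residual degrees of freedom for a count model, so no test was made. Widened intervals use reads divided by an overdispersion factor per class of total reads (69.7 for genes below 400 reads, 150 from 6400), which is the observed variance of ratios, taken robustly, relative to the counting variance. Differences within the mitochondrial reads are log2 odds ratios with conditional exact intervals. Nuclear copies were found with blastn 2.17.0+ in the GENCODE M21 transcripts, on the same strand. Lengths and GC content come from the longest transcript there, matched for 99.6% of genes. Python 3.11.15, scipy 1.17.1 and matplotlib 3.10.9 were used. The ratio and its counting interval were tested on simulated data that held counting error only. The widened interval was not tested in this way.

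The mRNAs, lists and markers were chosen with earlier results of these data known. Named genes were the mitochondrially encoded ones, the 3 genes with the most reads in a list or those past 2-fold with at least 1000 reads, and the 5 nearest to mt-Nd5. From the longer lists only some of these are named. The mitochondrial ribosomal protein list was taken by symbol from the listed genes after the data were seen.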

Additional observations from a re-analysis of the deposited data

How the results depend on the processing

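The log2 ratio of the mRNA sum (-0.46) was -0.60 under scaling to library totals, -0.49 with upper quartile factors and -0.56 after removal of the trend with length and GC content, and the median (-0.28) was -0.42 under library totals and -0.44 after trend removal. Without mt-Co1 the sum gave -0.72, and with mRNAs of at least 1000 reads only the median was -0.72; both were chosen after seeing the data. The number past 2-fold (4, as 2 lower and 2 higher) was 5 under library totals (3 lower and 2 higher). It was 6 at 1.5-fold or after trend removal (4 lower and 2 higher in each). It was 2 with the widened interval also excluding 0, and 2 with mRNAs of at least 1000 reads only, an alternative chosen after seeing the data. The difference of mt-Nd5 from the other heavy-strand mRNAs (-0.72) was -0.80 against their median, -0.81 without mt-Cytb, -0.53 without mt-Co1, -0.64 after trend removal and -0.80 against the median of those with at least 1000 reads. The difference of mt-Nd6 (-0.27) was -0.44 against the median, -0.36 without mt-Nd5, -0.0036 without mt-Co1, -0.54 after trend removal and -0.10 against the median of those with at least 1000 reads. Of the 9 listed mRNAs 1 changed sign, mt-Nd1, at -0.0039 after trend removal. No paired analysis was possible because each group has 1 library, and for the same reason no replicate could be left out. Low read numbers, whose cause was not tested, limit mt-Atp6 and mt-Co3, and their widened intervals have no upper bound.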

Other observations

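Of 18 nuclear transcripts that match mitochondrial mRNAs, 8 were listed, with 8 to 163 reads over both libraries. For mt-Co2 the mRNA had 20 reads in Cd11c-active against 7 in Cd11c-lineage, while its copies Gm28661, identical over 681 bases, and Gm13341, at 95.9% identity, had 2 and 32 and 1 and 60. For mt-Atp6 the copy Gm10925 had 25 and 9 reads beside 48 and 17 of the mRNA. Gm13340, the longest copy of mt-Co1, had 104 and 59 reads, and Gm11410, a copy of mt-Cytb at 92.9% identity, had 20 and 0. Gm4076, the copy of mt-Nd5 printed above, had 19 and 2 reads, against 4645 and 11185 of mt-Nd5.

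One mitochondrial tRNA was listed, mt-Tp, the proline tRNA of the light strand, which lies beyond mt-Cytb. It had 0 reads in Cd11c-active against 53 in Cd11c-lineage. The counting interval of its log2 ratio ended at -3.61, but the widened interval had no lower bound and ended at 5.47, so a difference was not detectable at this depth. The same held for mt-Nd4l, with 0 and 11 reads, whose counting interval ended at -1.14 and whose widened interval had no bounds. Of 77 genes of mitochondrial ribosomal proteins with at least 20 reads 14 were lower and 27 higher in Cd11c-active past 2-fold (21.6% and 23.3% over all genes with as many reads), with a median log2 ratio of 0.28, and 0 of them reached 1000 reads. The nuclear-retained RNAs Malat1 and Neat1 had log2 ratios of -0.69 (widened -0.91 to -0.48) and -0.47 (-1.47 to 0.57).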
